A study of Mus musculus with 8 samples.

Results

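Transcript levels of 9 mouse genes of the MHC class I system were followed in intraepithelial lymphocytes, the lymphocytes lodged within the intestinal epithelium. The genes were taken by symbol. They are the classical heavy chains H2-K1 and H2-D1, the shared light chain B2m (beta-2 microglobulin), and the nonclassical or class I-like heavy chains H2-Q7, H2-T3, H2-T22, H2-T23, H2-M3 and Cd1d1. All 9 symbols were found, among 52661 genes, and the 9 genes held 45 of the 133618 transcripts in the tables. The cells came from C57BL/6 mice, were isolated by flow sorting for CD45, the pan-leukocyte antigen, and were kept for 24 h in RPMI medium with 10% serum. There were 4 osteopontin libraries, from cells given 2 µg/ml osteopontin (a secreted matrix protein and cytokine whose receptors include integrins and CD44), and 4 null libraries, from cells given none. Both groups carried the library names 1, 2, A and B, and nothing in the labels says whether these were separate animals or cultures. The spread behind each p-value is therefore that between libraries, and part of it may be technical. The age and sex of the mice and the source of the osteopontin were not given in the sources used here.

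A classical class I molecule is a heavy chain paired with B2m. It is loaded in the endoplasmic reticulum with a peptide that the proteasome made and the TAP transporter brought in. H2-K1 and H2-D1 present such peptides to CD8 T cells on nearly all nucleated cells. Nonclassical chains are read more by innate-like lymphocytes, of which the gut epithelium holds many: H2-Q7 encodes Qa-2, H2-T23 encodes Qa-1 (the ligand of CD94 with NKG2 receptors), H2-T22 is bound directly by some gamma-delta T cell receptors, H2-M3 presents formylated bacterial peptides, and Cd1d1 presents lipids to NKT cells. H2-T3 encodes the thymus leukaemia antigen, which binds CD8 alpha homodimers and is known in mice from intestinal epithelial cells. Interferon acts on class I promoters through an interferon-stimulated response element (ISRE), NF-kB through an adjoining kB element, and the class I transactivator Nlrc5 through a block of elements that includes a CRE-like site and a CCAAT box.

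RefSeq promoter sequence (GRCm38.p6) was at hand for 8 of the 9 genes, Cd1d1 being the one without. The 250 bases before each transcription start were searched on both strands for GATTCCC (kB core), GTTTCACTT (ISRE), TNNTGACG (CRE-like) and CCAAT, letters that were written down after these promoters had been read. The ISRE letters occurred in 6 of the 8 genes. They are shown first, as the 30 bases that end with the ISRE match, with the kB core and the ISRE in capitals, because this stretch sets the genes apart from each other.
H2-K1 chr17:34000430-34000459 (-): tgggGATTCCCcatctccacaGTTTCACTT
H2-D1 chr17:35262922-35262951 (+): tgggGATTCCCcatctcctcaGTTTCACTT
H2-Q7 chr17:35439020-35439049 (+): ctgggGATTCCCatctccccaGTTTCACTT
H2-M3 chr17:37270111-37270140 (+): GATTCCCccatttcctctgagGTTTCACTT
H2-T22 chr17:36042926-36042955 (-): ggagagtccctaattggcttaGTTTCACTT
H2-T3 chr17:36190270-36190299 (-): gttgggctgtacagaactataGTTTCACTT

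H2-K1, H2-D1, H2-Q7 and H2-M3 held the kB core and the ISRE within the same 30 bases, whereas H2-T22 and H2-T3 held the ISRE letters with no kB core before it. Within the 250 bases, all 4 motifs occurred in H2-K1, H2-D1, H2-Q7 and H2-M3. Of the searched letters, H2-T22 lacked only the kB core, and B2m had the CRE-like letters and CCAAT. H2-T23 matched CCAAT alone, and H2-T3 the ISRE letters alone. Among 32851 promoters of this length, the kB core was found in 2.83%, the ISRE in 0.338%, the CRE-like letters in 4.55% and CCAAT in 33.8%, and all 4 in 5 promoters (0.0152%), which are those of H2-K1 (a pair of RefSeq starts), H2-D1, H2-Q7 and H2-M3. Because the letters were written down after the class I promoters had been read, these shares describe the search and test nothing. A match is a run of letters and not a measured binding site, and no matches overlapped within these promoters. Other spellings of the elements were not searched, so a promoter without a match, that of B2m included, may still hold the element. The whole window is given for the most abundant heavy chain and for its light chain, with every match of the 4 motifs in capitals.
H2-K1 promoter chr17:34000348-34000597 (-): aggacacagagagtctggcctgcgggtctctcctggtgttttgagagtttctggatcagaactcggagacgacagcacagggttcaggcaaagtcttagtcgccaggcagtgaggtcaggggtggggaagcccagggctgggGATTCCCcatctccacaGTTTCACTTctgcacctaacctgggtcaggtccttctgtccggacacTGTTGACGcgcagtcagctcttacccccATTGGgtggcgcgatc
B2m promoter chr2:122147437-122147686 (+): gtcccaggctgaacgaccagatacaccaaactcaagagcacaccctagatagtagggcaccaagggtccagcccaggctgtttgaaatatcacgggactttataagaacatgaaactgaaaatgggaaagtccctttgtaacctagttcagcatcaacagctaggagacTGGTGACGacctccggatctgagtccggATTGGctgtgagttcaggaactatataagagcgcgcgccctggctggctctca

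**Figure D1:**
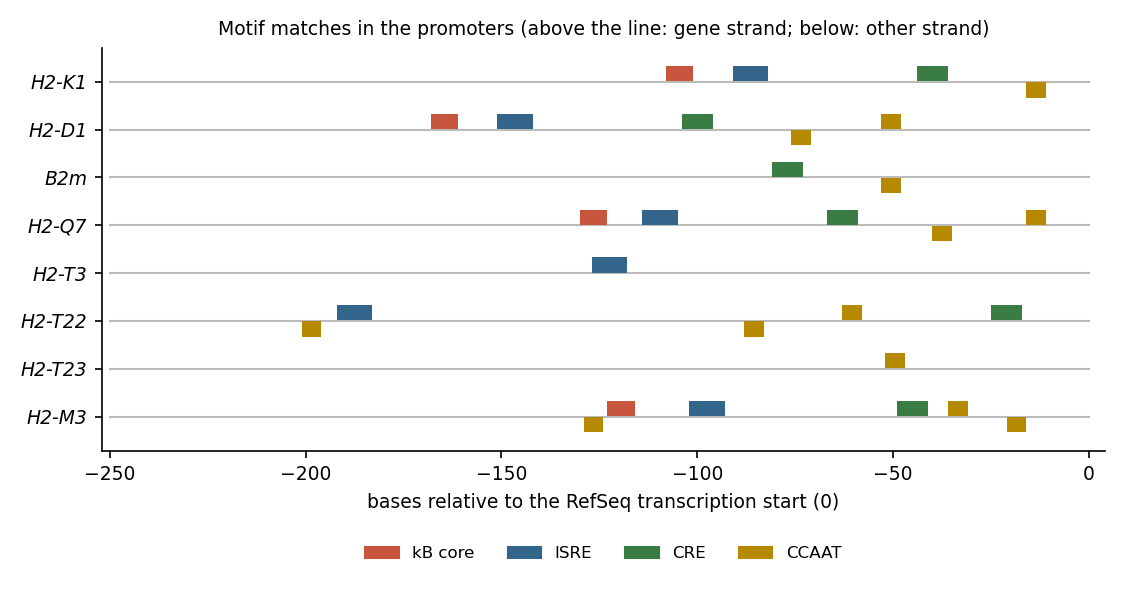
Motif matches in the 250 bases before the RefSeq start of 8 class I genes, plotted as bases relative to that start, with matches on the strand of the gene above each line and on the other strand below it. H2-K1, H2-D1, H2-Q7 and H2-M3 carry the kB core, the ISRE and the CRE-like letters in the same order, and H2-T3 carries the ISRE letters alone. Other spellings of the elements were not searched.

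By the GENCODE M21 annotation of GRCm38, matched on gene identifier, 7 of the genes lie on chromosome 17. H2-K1 (ENSMUSG00000061232) spans chr17:33996017-34000347, H2-D1 (ENSMUSG00000073411) chr17:35262730-35267499, and H2-Q7 (ENSMUSG00000060550) chr17:35439155-35443773. H2-T23 (ENSMUSG00000067212) at chr17:36029773-36032855, H2-T22 (ENSMUSG00000056116) at chr17:36037128-36042747 and H2-T3 (ENSMUSG00000054128) at chr17:36185572-36190287 are close neighbours, and H2-M3 (ENSMUSG00000016206) follows at chr17:37270220-37274484. B2m (ENSMUSG00000060802) lies apart at chr2:122147686-122153083, and Cd1d1 (ENSMUSG00000028076) at chr3:86995834-86999441. The heavy chains are alike in sequence, and the deposited estimates divide shared reads between them. In the annotated main coding transcript, the share of 31-base words that also occur in another gene was 23.3% for H2-K1 (16.9% with H2-D1) and 27.5% for H2-D1 (12.9% with H2-K1). It was 52.6% for H2-Q7 (H2-Q5 and H2-Q6), 63.8% for H2-T22 (56.1% with H2-T10 alone), 48.4% for H2-T23 (25.5% with H2-T-ps) and 33.2% for Cd1d1 (Cd1d2). H2-M3, H2-T3 and B2m had 4.62%, 5.35% and 0%, so their levels depend least on that division, and those of H2-Q7, H2-T22 and H2-T23 are uncertain singly.

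The libraries held 49108969 to 71292125 estimated reads with osteopontin and 57492806 to 71399847 in null. No pair of libraries of a group agreed within sampling noise (chi-square over degrees of freedom of 80.1 to 92.3 for pairs with a library named B and 37.3 to 50.5 for the others), so both B libraries stood apart from the rest of their groups. The cells carried transcripts of intraepithelial T cells: the 10 markers, Ptprc (which encodes CD45), Cd3e, Cd8a and Itgae among them, summed to 9322 to 10761 CPM with osteopontin and 8927 to 10745 CPM in null (CPM, a gene's reads scaled to a common library size, here on plain library totals). The 15 enterocyte markers summed to 319 to 381 CPM with osteopontin and 307 to 377 CPM in null, with Apoc3 under 3 reads in every library. Cdh1 (E-cadherin) made up most of this sum, while Fabp1 and Alpi were low, as given below with H2-T3. Fibroblast markers, 10 in all, summed to 7.74 to 28.2 CPM with osteopontin and 8.21 to 325 CPM in null, where libraries 1 and A held 325 and 180 CPM. The 9 B cell markers summed to 364 to 1011 CPM with osteopontin (364 in library B) and 772 to 1096 CPM in null. Ranges overlapped for plasma cell markers (6 genes, 3820 to 8546 CPM with osteopontin and 2996 to 9333 CPM in null), for 10 macrophage and dendritic cell markers (87.5 to 189 CPM with osteopontin and 96.4 to 178 CPM in null) and for 10 endothelial markers (69.1 to 158 CPM with osteopontin and 91.6 to 161 CPM in null). The 7 inducible stress genes summed to 31.4 to 41.7 CPM in osteopontin libraries 1, 2 and A and 173 CPM in osteopontin library B, against 151 to 198 CPM in null. The part of these differences between libraries in the class I values was not tested, and in bulk samples fewer cells of a type and less RNA per cell cannot be told apart.

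Transcripts of H2-K1, H2-D1 and B2m were among the most abundant in these lymphocytes. On the length-corrected TPM scale, H2-K1 averaged 3186 ± 193 TPM with osteopontin and 3154 ± 92.2 TPM in null, and H2-D1 averaged 2824 ± 151 TPM with osteopontin and 2809.8 ± 106 TPM in null (SD, n = 4 each). B2m averaged 2159 ± 105 TPM with osteopontin and 2222 ± 184 TPM in null (SD, n = 4 each). By mean TPM over the 8 libraries H2-K1, H2-D1 and B2m ranked 18, 24 and 32 of all genes, and H2-Q7 ranked 118 and H2-T23 310. Over all transcripts of each gene, coding and noncoding, the order of levels was H2-K1, H2-D1, B2m, H2-Q7, H2-T23, Cd1d1, H2-T22, H2-M3 and H2-T3. Each neighbouring pair stood in this order in all 8 libraries. The order and the ratios that follow were not computed for coding transcripts alone, where Cd1d1 stands lower, as given below. Median ratios between neighbours were 1.14 for H2-K1 over H2-D1, 1.27 for H2-D1 over B2m, 2.03 for B2m over H2-Q7, 2.57 for H2-Q7 over H2-T23, 3.12 for H2-T23 over Cd1d1, 1.29 for Cd1d1 over H2-T22 and 1.96 for H2-T22 over H2-M3. Only Cd1d1 (113 to 159 TPM) and H2-T22 (86.9 to 120 TPM) had overlapping ranges among the 8 genes that were clearly detected. H2-K1 and H2-D1 made up 76.7% ± 0.418 of the heavy-chain TPM of the 8 heavy chains with osteopontin and 76.8% ± 0.613 in null (SD, n = 4 each). H2-Q4 and H2-Q6, which averaged 715 and 707 TPM over all libraries, are not among these 8, so the share is not that of all class I.

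**Figure D2:**
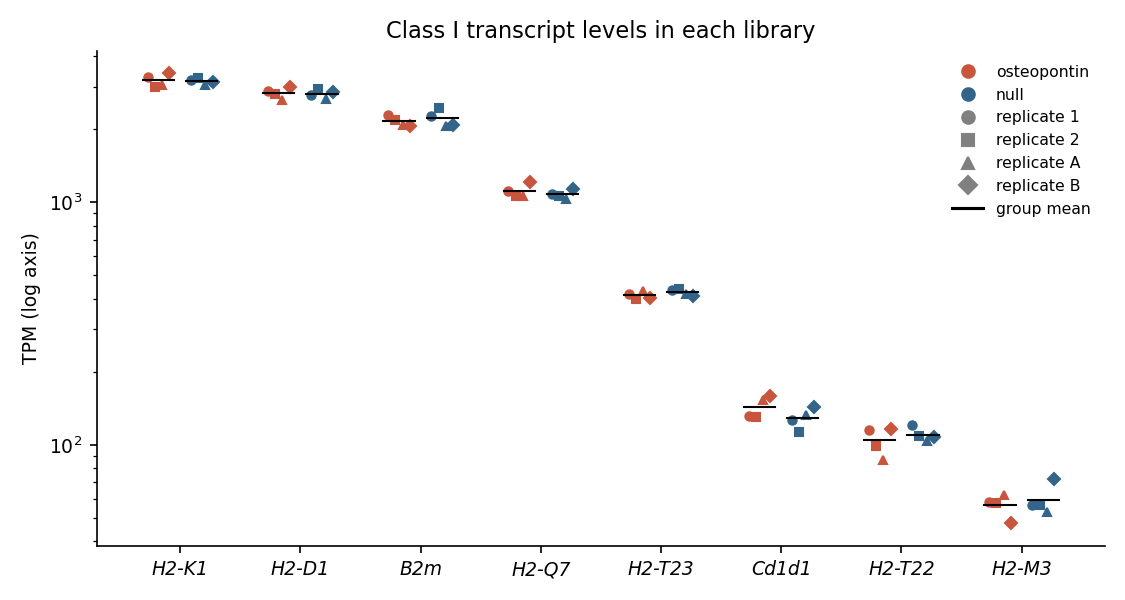
TPM (log axis) of 8 class I genes in the 4 osteopontin (left) and 4 null (right) libraries, with 1 symbol per library name and a line at each group's mean. Levels run from 3004 to 3407 TPM for H2-K1 to 47.5 to 72.2 TPM for H2-M3, the groups overlap for every gene, and H2-T3 (0 to 0.0480 TPM) is below the axis.

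No class I gene differed in level between osteopontin and null libraries by any test run over all genes. Of the 9 genes, 8 passed the filter on low counts and none was called by edgeR's quasi-likelihood test at a Benjamini-Hochberg adjusted p under 0.05 over 18631 genes. That test called 0 of all genes (0%), with a smallest adjusted p of 0.470, so the class I genes do not stand out by not being called. Without osteopontin library B it called 2 genes higher and 35 lower, none of them class I. None of the 8 reached an unadjusted p under 0.05, a level that 732 of all tested genes reached (3.93%), and for none were the 4 osteopontin CPM values all above or all below the 4 null values, as they were for 646 genes (3.47%). DESeq2 called 80 of 20271 genes (0.395%) and none of the 8, whose DESeq2 adjusted p ranged from 0.947 to 0.999. Fitted changes were higher for 3 and lower for 5 of the 8 genes, with a median log2 fold change of -0.04, beside 0.0004 over all tested genes.

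Among the classical heavy chains, H2-K1 had 2993, 2792, 2781 and 2979 CPM (scaled by TMM, as are all CPM of class I and pathway genes below) in osteopontin libraries 1, 2, A and B, against 2936, 3059.6, 2789 and 2914 CPM in the null libraries of those names. The groups overlapped throughout, at 2886 ± 115 CPM with osteopontin and 2925 ± 111 CPM in null (SD, n = 4 each). The log2 fold change was -0.02 (SE 0.0543, adjusted p 1.00 by edgeR), and its 95% interval spans 0.911- to 1.07-fold. H2-D1 had 3372, 3322, 3151 and 3343 CPM in the osteopontin libraries, against 3225, 3511, 3068 and 3189 CPM in the null libraries. Null library 2 held the highest and null library A the lowest value of all 8, so that the osteopontin range lay inside the null range. Group means were 3297 ± 99.3 CPM with osteopontin and 3248 ± 188 CPM in null (SD, n = 4 each), a log2 fold change of 0.02 (SE 0.0562, adjusted p 1.00 by edgeR, 0.934- to 1.10-fold). The ratio of H2-K1 to H2-D1 in TPM was 1.13 ± 0.0348 with osteopontin and 1.123 ± 0.0228 in null (SD, n = 4 each).

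B2m, the light chain that heavy chains need for stable surface expression, had 1033, 1022, 961 and 921 CPM in osteopontin libraries 1, 2, A and B, against 1047, 1158, 952 and 963 CPM in the null libraries. The osteopontin and null ranges overlapped, with null library 2 highest and osteopontin library B lowest. The means were 984 ± 52.4 CPM with osteopontin and 1030.2 ± 95.5 CPM in null (SD, n = 4 each), with a log2 fold change of -0.07 (SE 0.0694, adjusted p 1.00 by edgeR, 0.862- to 1.06-fold), or -0.01 without null library 2. Summed heavy chains stood to B2m in TPM at 3.49, 3.44, 3.60 and 4.03 in the osteopontin libraries, against 3.42, 3.24, 3.62 and 3.74 in the null libraries. In both groups library B had the highest ratio, and the means were 3.64 ± 0.270 with osteopontin and 3.51 ± 0.222 in null (SD, n = 4 each).

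The profile of B2m over the libraries was set beside those of other genes. Likeness was taken as the root mean square difference of log2(CPM + 0.5), centred per gene, over the 8 libraries, for 13807 genes that averaged 1 CPM or more. The median distance of those genes from B2m was 0.226, and B2m's own spread by the same measure was 0.0984. A gene that did not vary at all would lie at that spread from B2m. H2-D1 lay at 0.0730, H2-T23 at 0.0807 and H2-K1 at 0.0839, with 1.82%, 2.73% and 3.31% of the genes nearer to B2m than they were. These distances are not far below that of a flat gene, so the small percentages need not mean a shared pattern. H2-T22 (0.147), H2-Q7 (0.151), H2-M3 (0.188) and Cd1d1 (0.207) lay farther off than a flat gene would, with 22.6% to 44.8% of the genes nearer. H2-K1 and H2-D1 lay 0.0375 from each other. Both varied little themselves, with an SD of 3.67% and 4.32% of mean CPM over the 8 libraries (7.49% for B2m). They also share sequence, so this small distance need not mean a shared pattern either. Rpl23 (0.0192) and Rps3a1 (0.0241), each of which encodes a ribosomal protein, were among the 3 nearest genes and were picked for that nearness. Like B2m, with an effective length of 653 bases, Rpl23 and Rps3a1 have short transcripts (724 and 770.3 bases), while the 7 detected heavy chains averaged 1231 to 2961 bases. Whether transcript length bears on the likeness was not tested. The points share libraries and depth, and the likeness is a description over 8 libraries with no test.

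**Figure D3:**
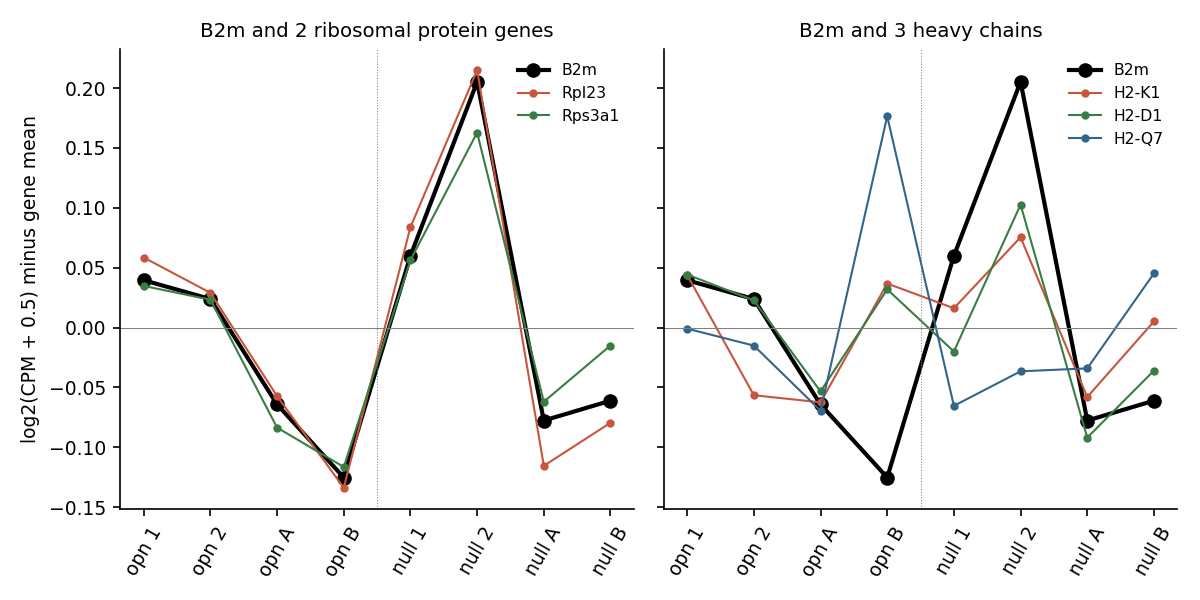
Log2(CPM + 0.5) minus the mean of each gene in the 4 osteopontin (opn) and 4 null libraries, for B2m with Rpl23 and Rps3a1 (left) and with H2-K1, H2-D1 and H2-Q7 (right). Rpl23 and Rps3a1 were picked for their nearness to B2m, which is highest in null library 2 and lowest in osteopontin library B (921 CPM), while H2-Q7 is highest in osteopontin library B (1780.0 CPM).

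The nonclassical heavy chains gave the same picture at lower levels. H2-Q7 had 1574, 1559, 1501 and 1780.0 CPM in osteopontin libraries 1, 2, A and B, against 1505, 1536, 1538 and 1625 CPM in the null libraries. Library B was the highest of both groups and the other values overlapped. The means were 1603 ± 122 CPM with osteopontin and 1551 ± 51.6 CPM in null (SD, n = 4 each), a log2 fold change of 0.05 (SE 0.0616, adjusted p 1.00 by edgeR, 0.944- to 1.13-fold). H2-T23 had 421, 406, 431 and 405 CPM in the osteopontin libraries, against 439, 449, 435 and 420 CPM in the null libraries. Osteopontin libraries 1 and A lay above null library B, so the groups overlapped despite little spread within each. Its means of 416 ± 12.7 CPM with osteopontin and 436 ± 12.3 CPM in null (SD, n = 4 each) gave a log2 fold change of -0.07 (SE 0.0558, edgeR p 0.242, adjusted p 1.00, 0.879- to 1.04-fold), or -0.01 from coding transcripts alone.

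H2-T22 had 133, 114, 102 and 134 CPM in osteopontin libraries 1, 2, A and B, against 136, 128, 122 and 127 CPM in the null libraries. Of the osteopontin libraries, 2 and A lay below the null range, 1 and B lay within it, and the group spread was the wider, at 121 ± 15.7 CPM with osteopontin and 129 ± 5.81 CPM in null (SD, n = 4 each). The log2 fold change was -0.09 (SE 0.0869, adjusted p 1.00 by edgeR, 0.828- to 1.07-fold), and -0.02 without osteopontin library A. H2-M3 had 50.01, 50.3, 54.1 and 39.6 CPM in the osteopontin libraries, against 48.6, 50.01, 46.0 and 62.9 CPM in the null libraries. The lowest and the highest values of the 8 were those of the B libraries, on opposite sides of the others. H2-M3 averaged 48.5 ± 6.25 CPM with osteopontin and 51.9 ± 7.54 CPM in null (SD, n = 4 each), a log2 fold change of -0.10 (SE 0.123, adjusted p 1.00 by edgeR, 0.780- to 1.12-fold), which became 0.09 when both B libraries were left out and 0.01 when null library B alone was.

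Cd1d1 had 96.2, 87.9, 111 and 106 CPM in osteopontin libraries 1, 2, A and B, against 85.6, 87.8, 94.95 and 97.9 CPM in the null libraries. Osteopontin libraries A and B lay above every null library, and libraries 1 and 2 lay within the null range. Means of 100.3 ± 10.31 CPM with osteopontin and 91.6 ± 5.81 CPM in null (SD, n = 4 each) gave the largest fitted change of the 8, a log2 fold change of 0.13 (SE 0.0858, edgeR p 0.147, adjusted p 1.00, 0.965- to 1.24-fold). In TPM the 4 letter-named libraries held 133 to 159 and the 4 digit-named ones 113 to 131. In CPM these overlapped, null library A lying below osteopontin library 1, and what the names stand for is not given in the sources used here.

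H2-T3, the chain that binds CD8 alpha homodimers, was at the limit of detection. It had 1, 3, 2 and 0 estimated reads in osteopontin libraries 1, 2, A and B, against 0, 2, 1 and 0 in the null libraries. That makes 9 reads in all over both groups, and no library held more than the 3 reads (0.0420 to 0.0611 CPM) that serve as a floor for counting error, so no fold change is given. Of the enterocyte markers in the same libraries, on plain library totals as in the marker sums and the floor, Epcam had 37.8 to 48.4 CPM with osteopontin and 37.7 to 43.1 CPM in null, and Cdh1 (E-cadherin) held 257 to 313 CPM with osteopontin and 245 to 314 CPM in null, most of the summed level. Fabp1, a fatty acid binding protein of absorptive cells, had 0.117 to 3.28 CPM with osteopontin and 0.0140 to 3.57 CPM in null, and Alpi, the intestinal alkaline phosphatase, was at 0 in 6 of the 8 libraries. In each group Fabp1 was highest in library B, and only the B libraries held Alpi (0.407 CPM with osteopontin, 0.381 CPM in null). Apoa1, another enterocyte marker, was also highest there, at 9.35 CPM with osteopontin and 3.34 CPM in null. H2-T3 had 0 reads in both B libraries. The 3 genes with the library profile nearest to that of H2-T3 (Xpot, Stxbp5 and Fam78a, at 0.0290 to 0.0333) are genes whose CPM hardly varied, since a gene with 0 to 3 reads is flat on this scale.

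**Figure D4:**
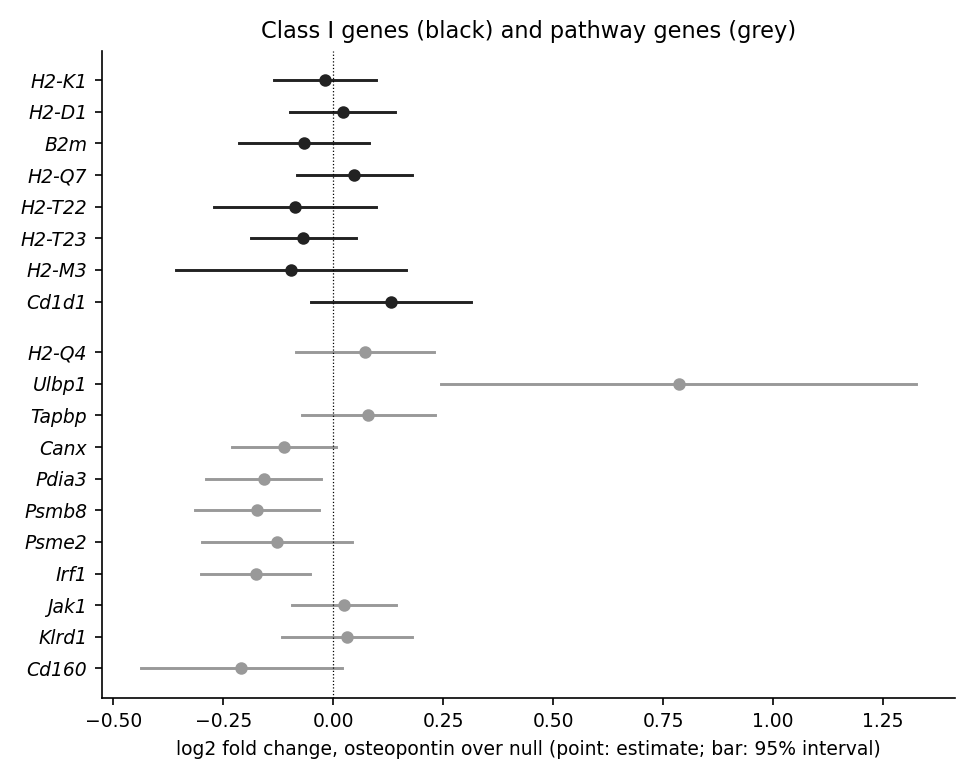
Log2 fold change of osteopontin over null with its 95% interval from the edgeR fit for 8 class I genes (black) and for most pathway genes named in the text (grey). Fcgrt (-1.36, interval -2.54 to -0.19) was left out to keep the axis narrow, and Tap1, Nlrc5 and H2-Q6 are not drawn. The 8 class I intervals all include 0, and the estimates run from -0.10 for H2-M3 to 0.13 for Cd1d1.

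Within genes, the estimates divide the level among coding and noncoding transcripts. B2m and H2-M3 have 1 transcript each in the tables. Transcripts labelled as retained introns took 73.8% ± 2.73 of Cd1d1 TPM with osteopontin and 73.1% ± 4.77 in null, and 47.3% ± 1.88 of H2-Q7 TPM with osteopontin and 46.6% ± 2.47 in null (SD, n = 4 each). The single coding Cd1d1 transcript above 1 TPM, of 1946 bases, held 37.3 ± 5.67 TPM with osteopontin and 33.9 ± 2.82 TPM in null (SD, n = 4 each), so most of the Cd1d1 TPM given above is not its coding messenger RNA as the estimates assign it. At 29.9 to 43.3 TPM over the 8 libraries, this coding transcript lay below H2-M3 (47.5 to 72.2 TPM). The place of Cd1d1 above H2-M3 in the order of levels thus rests on its noncoding transcripts. TPM is corrected for length, and the coding share of the reads behind the CPM values is not given here. For H2-T23 the retained-intron share was 24.8% ± 1.38 with osteopontin and 26.7% ± 1.62 in null, and for H2-T22 11.5% ± 2.01 with osteopontin and 10.47% ± 1.53 in null (SD, n = 4 each). H2-K1 had 9.80% ± 0.963 with osteopontin and 10.44% ± 0.957 in null, and H2-D1 4.34% ± 0.830 with osteopontin and 4.07% ± 0.599 in null (SD, n = 4 each). Coding transcripts took 86.3% of H2-K1 TPM and 95.7% of H2-D1 TPM with osteopontin, and 85.98% and 95.9% in null. The ratio of H2-K1 to H2-D1 is therefore smaller among coding transcripts than given above.

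Of the 45 class I transcripts, 32 averaged at least 1 TPM and 31 of these were tested in a fit over 50650 transcripts. The edgeR test called none of them and 0 of all transcripts (0%; smallest adjusted p 0.928). An unadjusted p under 0.05 was reached by 2 of the 31, beside 1.98% of all tested transcripts, and the CPM of 1 did not overlap between groups, beside 3.08%. That one was an H2-T23 transcript of 1942 bases with a retained intron, named after its values were seen. It had 63.5, 58.8, 55.4 and 51.9 TPM in osteopontin libraries 1, 2, A and B, against 90.9, 76.3, 75.9 and 72.6 TPM in the null libraries, so that every osteopontin library lay below every null library. The log2 fold change was -0.50 (SE 0.109, edgeR p 0.00146, adjusted p 1.00). The coding H2-T23 transcript, of 1472 bases, had 311 ± 15.3 TPM with osteopontin and 312 ± 12.5 TPM in null (SD, n = 4 each), and a second retained-intron transcript, of 2642 bases, had 41.7 ± 9.41 TPM with osteopontin and 33.7 ± 4.28 TPM in null (SD, n = 4 each). The other transcript was a coding one of H2-D1 with 391 bases, at 227, 222, 199 and 287 TPM in the osteopontin libraries, against 264, 265, 293 and 352 TPM in the null libraries. Its values overlapped through osteopontin library B, with a log2 fold change of -0.37 (SE 0.140, edgeR p 0.0291, adjusted p 1.00).

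**Figure D5:**
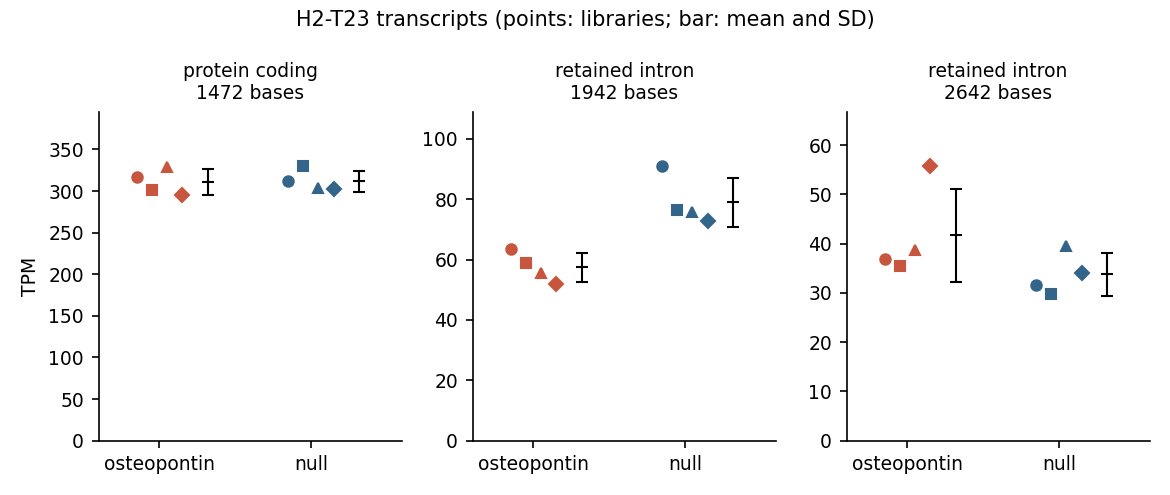
TPM of the 3 most abundant H2-T23 transcripts in each library, osteopontin left of null, with the mean and SD of each group as a bar. The retained-intron transcript of 1942 bases is at 51.9 to 63.5 TPM with osteopontin and 72.6 to 90.9 TPM in null, while the coding transcript of 1472 bases overlaps between the groups.

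Around the class I genes, none of the pathway genes was called by edgeR, and their groups without overlap are to be read against the 3.47% of all tested genes given above. Other class I and class I-like heavy chains were tested for 14 of the 36 genes listed, of which 8 were fitted higher and 6 lower, with a median log2 fold change of 0.05. The most abundant in TPM was H2-Q4, a neighbour of H2-Q7, with a level of 928 ± 94.6 CPM with osteopontin and 883 ± 58.8 CPM in null (SD, n = 4 each; log2 fold change 0.07, adjusted p 1.00 by edgeR). The smallest p was that of Fcgrt, the neonatal Fc receptor, which also pairs with B2m, at 1.25 ± 0.779 CPM with osteopontin and 3.22 ± 1.01 CPM in null (SD, n = 4 each; log2 fold change -1.36, SE 0.555, edgeR p 0.0261, adjusted p 1.00). Of the NKG2D ligands, stress-induced relatives of class I, 2 of the 9 listed were tested and both were fitted higher. Ulbp1 had 12.9, 12.9, 14.2 and 21.4 CPM in osteopontin libraries 1, 2, A and B, against 9.23, 9.70, 11.4 and 5.30 CPM in the null libraries. All osteopontin values lay above all null values, with library B the highest with osteopontin and the lowest in null. The log2 fold change of 0.79 (SE 0.254, edgeR p 0.00720, adjusted p 1.00) was 0.40 without both B libraries.

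Peptide transport and loading genes numbered 11, all tested, with 5 fitted higher and 6 lower and a median log2 fold change of -0.01. Tap1, the peptide transporter, had 268 ± 12.5 CPM with osteopontin and 266 ± 7.13 CPM in null, and Tapbp (tapasin, the most abundant in TPM) 315 ± 24.7 CPM with osteopontin and 298 ± 20.4 CPM in null (SD, n = 4 each; adjusted p 1.00 by edgeR for both). Groups did not overlap for 2 of the 11, both lower: Pdia3, the ERp57 partner of tapasin, at 289 ± 15.7 CPM with osteopontin and 323 ± 12.7 CPM in null, and the chaperone Canx at 207 ± 3.71 CPM with osteopontin and 224 ± 3.796 CPM in null (SD, n = 4 each). Their log2 fold changes were -0.16 (edgeR p 0.0209, adjusted p 1.00; -0.10 without both B libraries) and -0.11 (edgeR p 0.0614, adjusted p 1.00). Of 11 proteasome subunits, 3 were fitted higher and 8 lower, with a median of -0.10. Psmb8, an immunoproteasome subunit induced by interferon, had 210.0, 201, 195 and 179 CPM in the osteopontin libraries, against 212, 227, 212 and 233 CPM in the null libraries. No osteopontin value reached the null range (log2 fold change -0.17, SE 0.0665, edgeR p 0.0191, adjusted p 1.00), and the value was -0.11 without both B libraries. Psme2, a proteasome activator subunit and the most abundant of this list in TPM, did not overlap either, at 88.9 ± 1.72 CPM with osteopontin and 97.1 ± 9.43 CPM in null (SD, n = 4 each; log2 fold change -0.13, adjusted p 1.00 by edgeR), and this became -0.06 without null library B and -0.08 with an effective-length offset.

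Regulators of class I transcription and interferon signalling, 25 genes, were fitted higher for 7 and lower for 18, with a median log2 fold change of -0.05. Nlrc5 had 221 ± 8.83 CPM with osteopontin and 227 ± 12.2 CPM in null (SD, n = 4 each; log2 fold change -0.04, adjusted p 1.00 by edgeR), and the kinase Jak1, the most abundant in TPM, 1128 ± 17.9 CPM with osteopontin and 1109 ± 56.1 CPM in null (SD, n = 4 each). Irf1, which carries the interferon-gamma signal to class I promoters, had 244, 252, 254 and 244 CPM in osteopontin libraries 1, 2, A and B, against 273, 287, 268 and 296 CPM in the null libraries. Every osteopontin value lay below every null value, with a log2 fold change of -0.18 (SE 0.0586, edgeR p 0.00838, adjusted p 1.00). Under DESeq2 the adjusted p of Irf1 was 0.177, the lowest of 22 alternatives, the others reaching up to 1.00. Class I receptors were fitted higher for 7 and lower for 14 of 21 tested genes, with a median of -0.11 and no gene without overlap. Klrd1, the CD94 chain that reads Qa-1, was the most abundant in TPM, with a level of 506 ± 44.8 CPM with osteopontin and 495 ± 26.2 CPM in null, and Cd160 had the smallest p at 67.1 ± 7.02 CPM with osteopontin and 77.6 ± 10.8 CPM in null (SD, n = 4 each; log2 fold change -0.21, edgeR p 0.0693, adjusted p 1.00). Without null library B the Cd160 value was -0.12. Tap1, Nlrc5, Canx and Irf1 were chosen after their values were seen, the other pathway genes by the naming rule.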

How the data were processed

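RNA isolated on micro columns was made into stranded Illumina libraries, per the labels' protocols. The authors quantified transcripts with Salmon, per the submitters' processing notes. Not given in the sources used here are the version of Salmon, the genome build and the transcript release. Each deposited table holds estimated counts, which need not be whole. It also holds TPM (transcript abundance per effective length, scaled by the authors' tool to 1 sum per library) and the effective length itself, per the file headers. Reads that fit several near-identical transcripts are divided among them by Salmon. Of the 45 class I transcripts, 41 have the same identifier and length in GENCODE M21, which was used for positions. The 31-base words of H2-K1 and H2-Q7 were taken from transcript versions of 1619 and 1497 bases. The deposited estimates used versions of 1605 and 1406 bases, so the shares for these genes are approximate.

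Estimated counts were summed per gene by symbol and identifier and rounded to whole numbers. Osteopontin and null libraries were compared over all genes, and over all transcripts, with the quasi-likelihood test of edgeR 4.0.16 (robust, two-sided, group as the only term; filterByExpr with a minimum count of 10; TMM scaling; Benjamini-Hochberg adjustment; R 4.3.3). DESeq2 1.42.0 and voom of limma 3.58.1 were alternatives. Intervals are 95% intervals. Depth was 49108969 to 71399847 estimated reads per library, and floors of 3 reads cover counting error only. The code was tested on simulated data.

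The class I genes, the pathway and marker lists and the tests were chosen with earlier results of these data known. Named were all 9 class I genes and, from each pathway list, any called gene, else the one with the smallest p, and the one with the highest TPM; transcripts were described from a mean of 1 TPM. Listed genes absent from the tables are not analysed here. Results of some genes that these rules take are not reported here. The library names 1, 2, A and B were not treated as pairs: deviations of same-named libraries from their group means correlated at 0.0817, 0.0740, 0.0885 and 0.133 over genes. Alternatives were other scalings and filters, the name as a block or covariate, digit-named or letter-named libraries alone, an effective-length offset, coding transcripts alone, near-identical genes merged, and each library left out. The removal of both B libraries was added after the data were seen.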

Additional observations from a re-analysis of the deposited data

How the results depend on the processing

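No class I gene was called under any of 22 alternatives (176 values, lowest adjusted p 0.680). Direction was kept in 166 of them and reversed in 10, over a log2 fold change range of -0.22 to 0.19. B2m, H2-T22, H2-T23 and Cd1d1 kept their direction, but not their size: B2m ran from -0.11 to -0.007 (without null 2), H2-T22 from -0.15 to -0.016 (without osteopontin A), H2-T23 from -0.10 to -0.006 (coding transcripts alone) and Cd1d1 from 0.08 (without osteopontin A) to 0.19. H2-K1 became 0.011 in letter-named libraries alone and 0.009 with coding transcripts alone, and ran from -0.042 to 0.001 with 1 library left out (positive without null 2). H2-D1 became -0.007 in digit-named libraries alone and -0.025 without null 1 and A, and ran from -0.006 (without null A) to 0.059. H2-Q7 ran from -0.008 (without osteopontin B) to 0.076. H2-M3 became 0.027 in digit-named libraries alone and 0.093 without both B libraries, and ran from -0.156 to 0.007 (without null B). Of the pathway genes, H2-Q4 ran from -0.004 (without osteopontin B) to 0.12 with 1 library left out, Jak1 from -0.004 (without null 1) to 0.054 and Klrd1 from -0.020 (without osteopontin 2) to 0.073. Jak1 became -0.033 without null 1 and A, and Klrd1 -0.027 in letter-named libraries alone and -0.005 with coding transcripts alone. Genes called higher and lower over the whole table numbered 0 and 0 in edgeR, 21 and 59 in DESeq2, 3 and 1 without the filter, 1 and 15 in digit-named libraries alone, 0 and 1 in letter-named ones, and 1 and 48 without both B libraries. With 1 library left out they ran from 0 to 2 higher and 0 to 35 lower: 2 and 35 without osteopontin B, 1 higher without null 1, and 1 lower without osteopontin 2 or null 2. Transcripts called lower ran from 0 to 2 (2 without osteopontin B). With the replicate name as a block, 0 genes and 0 transcripts were called, Cd1d1 was at 0.13 and H2-K1 at -0.02; every library correlated best with the one of its own name, which is a hint from the data and not the design. The cause of these changes was not tested. Sequence shared between heavy chains limits H2-Q7, H2-T22, H2-T23 and Cd1d1, and depth limits H2-T3.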
